A study of Notophthalmus viridescens with 3 samples.

Results

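The miR-101 family was read by 3 of the 1365 miRNA probes on an array hybridized with total RNA of whole adult newt hearts. These 3 are the experimental probes named miR-101, miR-101a or miR-101b after the species prefix is removed, with passenger strands (names ending in *) left out. The animals were red-spotted newts, Notophthalmus viridescens, salamanders that regrow heart muscle. The samples were uninjured hearts, hearts taken 7 days after injury (7 dpi) and hearts taken 21 days after it (21 dpi), with 1 sample and 1 Cy3 array for each. No genotype, strain or treatment other than the injury is given in the labels, nor how many animals each sample holds. Each group has 1 sample, so no p-value can be given, and each difference describes these 3 RNA samples only.

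MicroRNAs are short RNAs that lower the output of messenger RNAs, which they recognise mainly through the seed, bases 2 to 8 from their 5′ end. miR-101 is made in many vertebrate tissues. In human cells it is known to repress EZH2, the enzyme of a silencing histone mark, and in rat cardiac fibroblasts and the zebrafish heart it acts on Fos genes. In zebrafish, miR-101a is tied to scar clearance and muscle regrowth after heart amputation.

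The target sequences of the 3 probes are shown because they set what each probe can tell apart. Capitals mark the seed.
hsa-miR-101: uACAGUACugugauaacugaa
xtr-miR-101a: uACAGUACugugauaacugaag
dre-miR-101b: uACAGUACuaugauaacugaag
The first was made for the human miRNA and has 21 bases. The second has 22 bases and stands for both the frog (Xenopus tropicalis) and the zebrafish miR-101a, and its first 21 bases are those of the human target. The third, zebrafish miR-101b, differs from miR-101a by G10A, with positions counted from 1 at the 5′ end. All 3 share the seed ACAGUAC, which no other of the 1365 targets carries. The newt sequences of this family were not used here, so whether a newt miR-101 matches any of these targets to the last base is not known, and signal cannot be assigned to 1 family member. The 3 probes are therefore overlapping readings of 1 RNA sample, not replicates.

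Each probe had 3 spots per array, and a spot's brightness is its deposited median intensity on a linear scale. Detection required the middle one of the 3 spots to lie above percentile 95 of the array's 587 empty spots, which was 73.8 for uninjured hearts, 77.5 for 7 dpi and 103 for 21 dpi. The numbers of miRNA probes detected were 225, 220 and 180 in that order, with 169 detected on all 3 arrays. Of 6 striated muscle and heart miRNAs (miR-1, miR-133a, miR-133b, miR-208, miR-208b and miR-499), 5 were detected on every array, all but miR-208. Neither of the neural miRNAs miR-124 and miR-9 was detected on any. miR-122, a marker of liver, passed the minimum only on the 7 dpi array, with a median spot 85.2 above the median empty spot, and its part in any result was not tested.

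The human miR-101 probe and the miR-101a probe were detected on all 3 arrays, and the miR-101b probe was near the detection minimum on each. The 3 spots of the human probe read 575, 678 and 658 on the uninjured array, 227, 233 and 236 at 7 dpi, and 806, 414 and 457 at 21 dpi. The spots at 7 dpi are lower than those of the other arrays, and those at 21 dpi lie on both sides of the uninjured ones. The 3 spots of the miR-101a probe read 358, 417 and 444 on the uninjured array, 186, 185 and 177 at 7 dpi, and 572, 535 and 455 at 21 dpi. Again the 7 dpi spots are the lowest, and here all 3 spots at 21 dpi are brighter than all 3 of the uninjured heart. The median spot of the human probe was 8.92 times the detection minimum for uninjured hearts, 3.00 times it for 7 dpi and 4.43 times it for 21 dpi, and that of the miR-101a probe 5.65, 2.39 and 5.19 times.

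The spots of the miR-101b probe read 81.8, 77.8 and 78.7 on the uninjured array, 79.8, 75.2 and 68.6 at 7 dpi, and 129, 121 and 115 at 21 dpi. Its median spot was 1.07 times the detection minimum for uninjured hearts, 0.971 times it for 7 dpi and 1.17 times it for 21 dpi, so the probe was not detected at 7 dpi. The 21 dpi spots are the brightest, and those of the other arrays overlap.

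**Figure D1:**
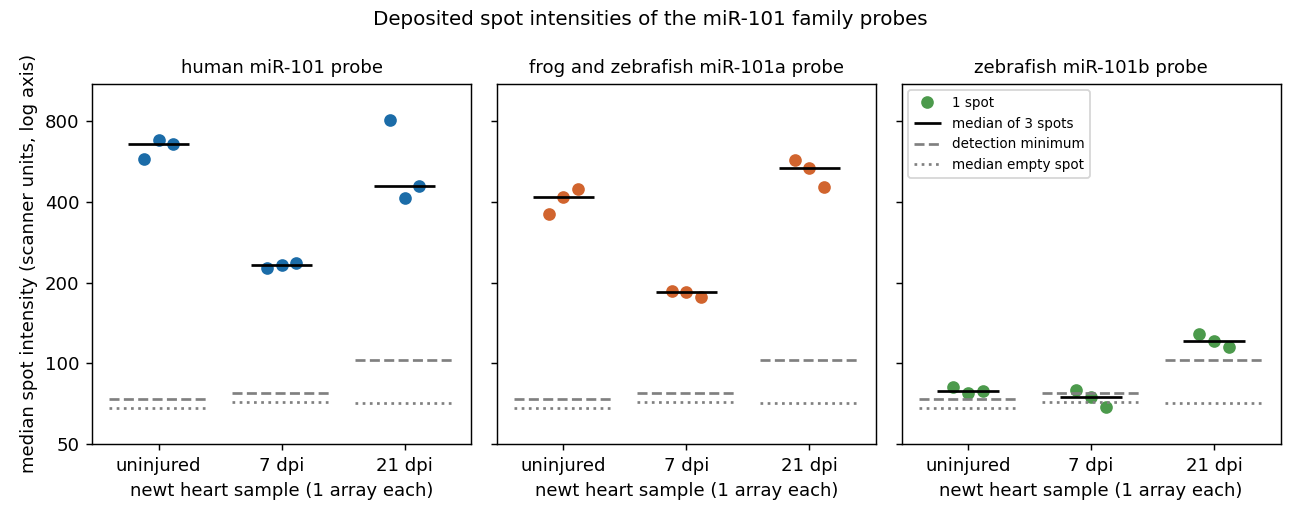
Deposited intensity of each spot (scanner units, log axis) for the 3 miR-101 family probes in the uninjured, 7 dpi and 21 dpi newt heart samples, with the median spot, the detection minimum and the median empty spot of each array. The human probe and the miR-101a probe are above the detection minimum on all 3 arrays, with their dimmest spots at 7 dpi, and the miR-101b probe lies near the minimum, between 68.6 and 129.

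The general level of the miRNA probes on each array enters these values. The median ratio of the 169 shared miRNA probes, as signal above the median empty spot on the log2 scale, was -1.43 for 7 dpi over uninjured and 0.42 for 21 dpi over uninjured. On the same scale 14 probes for 5S rRNA stood at -0.10 and 0.35. The median of 12 spike-in probes with P or PM in their names was 0.42 and 1.24. The lower miRNA median at 7 dpi was thus not shared by these control probes. For 7 dpi over uninjured, the human miR-101 probe had a ratio of -1.87 and the miR-101a probe -1.62. Both were lower than the 5S rRNA median and nearer to the miRNA median. Less the miRNA median, these ratios were -0.44 and -0.19. Scaling between arrays therefore decides how large a difference is given to the family at 7 dpi. In RNA from whole hearts, fewer cells of a type and less of a miRNA per cell cannot be told apart.

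**Figure D2:**
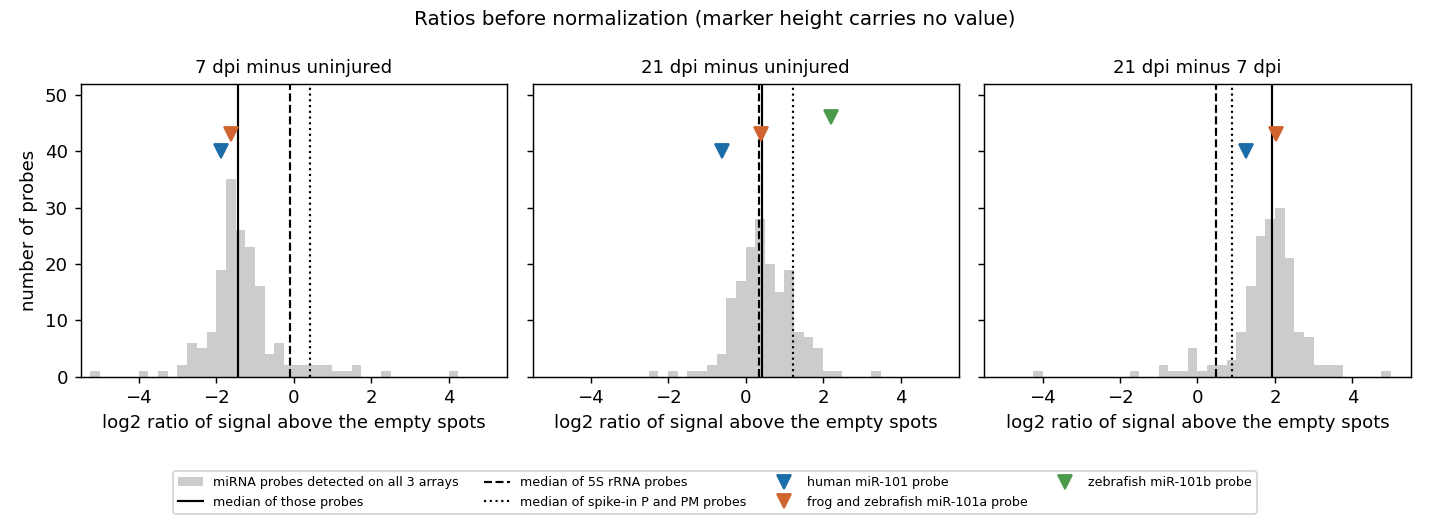
Log2 ratios of signal above the empty spots before normalization for the 169 miRNA probes detected on all 3 arrays (grey bars, number of probes), with their median, the medians of the 5S rRNA and of the spike-in probes with names in P or PM, and the miR-101 family probes detected on both arrays of a comparison (triangles). For 7 dpi minus uninjured, family ratios of -1.87 and -1.62 lie below the miRNA median (-1.43) and further below the 5S rRNA median (-0.10). For 21 dpi minus uninjured the 3 probes part, at -0.61, 0.41 and 2.21.

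After background correction, averaging of spots and quantile normalization, the human probe had a normalized log2 level of 8.89 ± 0.13 for uninjured hearts, 8.76 ± 0.03 for 7 dpi and 8.44 ± 0.52 for 21 dpi (SD of 3 spots, technical spread only). The miR-101a probe had levels of 8.47 ± 0.16, 8.23 ± 0.04 and 8.39 ± 0.17 in the same order. For the miR-101b probe these were 6.27 ± 0.04, 6.11 ± 0.12 and 6.66 ± 0.08. Ordered by level, the human and miR-101a probes were both highest in the uninjured heart. The lowest was 21 dpi for the human probe and 7 dpi for the miR-101a probe. For neither probe were neighbours in that order separated by their normalized spots, though the uninjured and 7 dpi spots of the miR-101a probe, the ends of its order, did not overlap. The miR-101b probe was highest at 21 dpi and lowest at 7 dpi, with no overlap between any of its arrays.

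At 7 dpi, none of the 3 miR-101 probes stood 2-fold from the uninjured heart. The normalized log2 difference was -0.13 ± 0.08 for the human probe, -0.25 ± 0.10 for the miR-101a probe and -0.17 ± 0.08 for the miR-101b probe (7 dpi minus uninjured, each ± the standard error over 3 spots on both arrays). All 3 differences are negative and small. Their median of -0.17 is the value of the miR-101b probe, which was not detected at 7 dpi, and the median of the other two was -0.19. Over all 255 probes detected on either array the median was -0.11, and 54.5% were lower at 7 dpi. A call here means a log2 difference of at least 1 in size with no overlap between the spots of both arrays, and 12.5% of those probes were called, 8.63% as higher and 3.92% as lower at 7 dpi. With no size required, the spots of the miR-101a and miR-101b probes were separated and lower at 7 dpi, which was so for 40.8% of the 255 probes, with 27.8% separated and higher. Because the miR-101b probe was not detected at 7 dpi, its size is only a bound. Under this normalization the uninjured level was at least 1.08-fold above the 7 dpi one. Scaling to 5S rRNA in place of quantile normalization gave -0.96 for the human probe, -0.67 for the miR-101a probe and 0.35 for the miR-101b probe. Over 10 alternatives in processing the difference ran from -1.73 to -0.15 for the human probe and from -1.43 to -0.021 for the miR-101a probe, negative in all 10 for both. For the miR-101b probe the direction was not kept. Its difference ran from -0.64 to 1.00 over 9 alternatives, negative in 6 and positive in 2, and was 0 with subtraction of the empty-spot median with a floor.

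At 21 dpi, again none of the 3 probes was called against the uninjured heart, where 3.04% of 230 probes were called, 0.870% as higher and 2.17% as lower, and the probes did not point the same way. The normalized log2 difference was -0.46 ± 0.31 for the human probe, -0.08 ± 0.13 for the miR-101a probe and 0.39 ± 0.05 for the miR-101b probe (21 dpi minus uninjured). The spots of the first pair overlapped between arrays, and those of the miR-101b probe were separated, as were 23.0% of all probes on the higher side and 31.7% on the lower. The family median was -0.08, beside -0.06 over all probes. Of those 230 probes, 14.8% had a lower difference than the human probe, 47.8% a lower one than the miR-101a probe and 81.3% a lower one than the miR-101b probe.

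**Figure D3:**
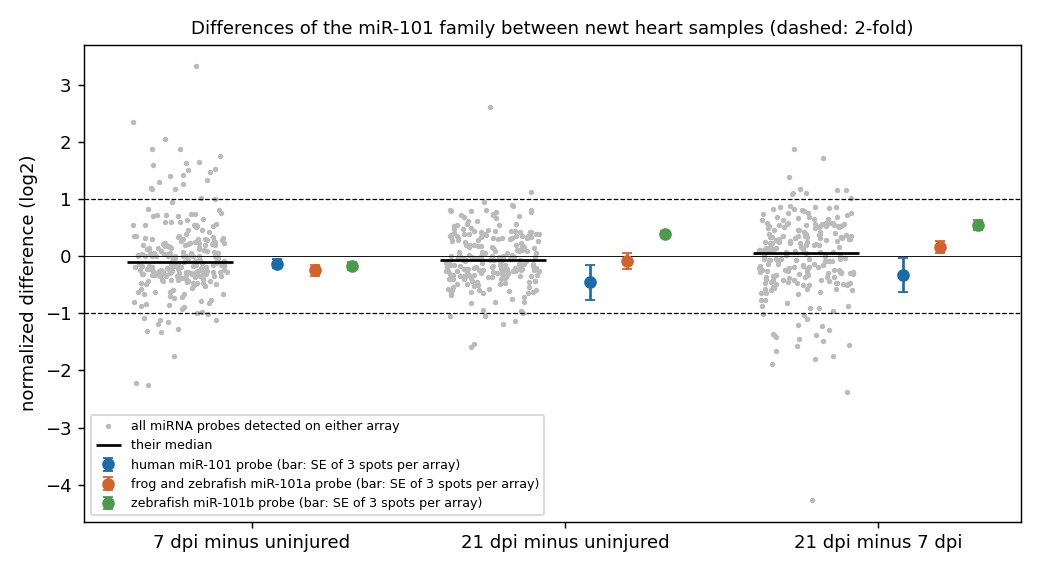
Normalized log2 differences of the 3 miR-101 family probes (coloured points, bars are the standard error over 3 spots on both arrays) beside all miRNA probes detected on either array (grey points, black line is their median), for 7 dpi minus uninjured, 21 dpi minus uninjured and 21 dpi minus 7 dpi. All family points lie inside the dashed 2-fold lines, close together at 7 dpi (-0.25 to -0.13) and apart at 21 dpi (-0.46 to 0.39).

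The human and miR-101a probes match at every base that both targets hold, yet at 21 dpi their differences were 0.38 apart on the log2 scale, and 0.12 apart at 7 dpi. On the array, 37 other pairs of probes detected in all 3 samples match in this way. The rule was at least 18 shared bases, no mismatch and starts offset by at most 2 bases. Some probes are in more than 1 pair. The gap between their differences had a median of 0.23 for 21 dpi minus uninjured and reached 1.15, and 12 of the 37 exceeded the gap of the miR-101 pair. For 7 dpi minus uninjured the median was 0.30 and 30 of 37 exceeded it. The gap between the miR-101 probes is thus within the range that matching probes gave on these arrays.

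**Figure D4:**
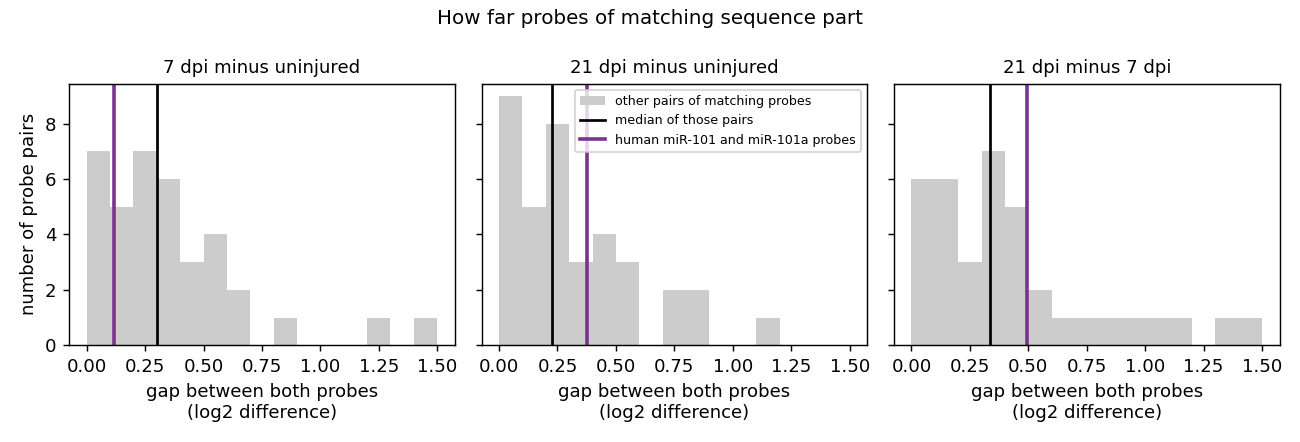
Gap between the log2 differences of 2 probes whose targets match at every shared base, for 37 pairs (grey bars, number of pairs; black line, their median) and for the human miR-101 and miR-101a probes (purple line), in each of the 3 comparisons. The miR-101 gap of 0.12 at 7 dpi lies below the median of 0.30, and the gap of 0.38 at 21 dpi lies above the median of 0.23 with 12 pairs further out.

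The human value at 21 dpi depends on 1 spot. Its first spot read 806 against 414 and 457 for the others, a range of 0.96 on the normalized log2 scale, and 11.7% of the 180 detected probes at 21 dpi had a wider one. Without that spot the human difference to the uninjured heart was -0.70 and with the median of spots -0.81. At 21 dpi, 24 other detected probes had first spots within 10 rows of that spot. These stood at a median of 0.14 log2 units over their own other spots, and 4 stood above 0.5. They ran from -0.31 to 1.22, a range that holds the 1.01 of the first human miR-101 spot. On the uninjured array 27 such neighbours had a median of -0.34 and the human spot stood at -0.24.

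The authors' deposited values for the human probe were 483 for uninjured hearts, 347 for 7 dpi and 213 for 21 dpi, and for the miR-101a probe 290, 247 and 256. On the log2 scale the authors' deposited values put 21 dpi at -1.18 against the uninjured heart for the human probe and at -0.18 for the miR-101a probe. For the miR-101b probe the authors' deposited values were 16.5 for uninjured hearts, 10.5 for 7 dpi and 42.1 for 21 dpi, which put 21 dpi at 1.35. The human and miR-101b values are thus past 2-fold in opposite directions there, and the miR-101a value is near 0. Of 230 probes, 55 were past 2-fold in the authors' values at 21 dpi, 14 as higher and 41 as lower. At 21 dpi the authors' value of the human probe was 0.438 times the mean of its 3 spots above the empty median, and 0.587 times that mean without the brightest spot. For the miR-101a probe these were 0.570 and 0.604. At 21 dpi these ratios lie closer together for the 2 probes with the brightest spot of each left out. On the other arrays they already lay close together over all 3 spots, at 0.850 and 0.855 for uninjured hearts and 2.16 and 2.22 for 7 dpi, and were further apart with it left out, at 0.882 and 0.905 and at 2.19 and 2.26.

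The miR-101b probe stood apart from the rest of the family at 21 dpi. Its spots were 57.2, 49.6 and 43.3 above the median empty spot at 21 dpi, against 13.9, 9.80 and 10.7 in the uninjured heart. That is a log2 ratio of 2.21, beside 0.41 for the miR-101a probe and 0.42 for the median miRNA probe. Its ratio exceeded that of the miR-101a probe by 1.80 log2 units, while in 67 other pairs of probes with 1 mismatch the ratio of the dimmer probe minus that of the brighter had a median of 0.10 and lay between -0.83 and 1.38. In the 18 of these pairs whose brighter probe had at least 4 times the signal of the dimmer, as in the miR-101 pair, the median was 0.41 and the dimmer probe had the higher ratio in 13. Against the median empty spot, the median spot of the zebrafish miR-29b probe stood at 28.1 at 21 dpi, where it was not detected, and 65.8 in the uninjured heart. For the frog miR-144 probe these were 42.2 and 15.3. The median empty spot itself read 71.4 at 21 dpi and 68.0 in the uninjured heart. Percentile 95 of the empty spots was 103 at 21 dpi against 73.8 in the uninjured heart. Percentile 99 was 194 at 21 dpi and 79.2 in the uninjured heart, above the miR-101b median spots of 121 and 78.7. The 4 spike-in probes with M or MM in their names had ratios of 2.11 to 3.67. The 12 with P or PM had ratios of 0.62 to 2.50, and the classes were not paired probe by probe. The part of these readings in that of miR-101b was not tested. The difference of miR-101b to the uninjured heart was positive in 10 of 11 alternatives in processing, up to 1.79, and was -0.86 with spike-in scaling.

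Between the injured hearts, the normalized log2 difference (21 dpi minus 7 dpi) was -0.33 ± 0.30 for the human probe and 0.17 ± 0.10 for the miR-101a probe. The miR-101b probe was not detected at 7 dpi. Under quantile normalization it was at least 1.41-fold higher at 21 dpi, with a measured difference of 0.55 ± 0.09. Its direction was not kept over 10 alternatives in processing, being positive in 7 and negative in 3. The negative values were -0.65 with scaling to shared probes, -0.44 with spike-in scaling and -0.15 with 5S rRNA scaling. None of the 3 family probes was called under quantile normalization, where 12.6% of 231 probes were, 3.90% as higher and 8.66% as lower. The median difference was 0.17 for the 3 family probes, -0.080 for the pair detected on both arrays and 0.05 over all 231. Spots of the human and miR-101a probes overlapped between these arrays and those of the miR-101b probe did not, as for 37.2% of the 231 probes on the higher side and 32.0% on the lower. This comparison shares its arrays with the other comparisons and adds no independent reading.

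The passenger strand of miR-101 and miR-144, which shares all but the last base of its seed, are shown beside the family.
hsa-miR-101*: cAGUUAUCacagugcugaugcu
xtr-miR-144: uACAGUAUagaugauguacua
The strand opposite miR-101 in its precursor, miR-101*, was not detected on any array, and its median spot stood at -8.26 for uninjured hearts, -5.25 for 7 dpi and -11.8 for 21 dpi against the median empty spot. miR-144, made with miR-451 in red blood cells, shares bases 2 to 7 with miR-101 and differs from it within the seed by C8U. Of the 1365 targets, 8 carry those bases 2 to 7, which are the 3 family probes, both miR-144 probes, the zebrafish and frog miR-2184 probes and the frog miR-199a* probe. The miR-199a* probe, named for its seed after its values were seen, was detected on all 3 arrays and had normalized log2 differences of -0.03 at 7 dpi and -0.23 at 21 dpi. The human miR-199a-3p probe, which matches it at every shared base, stood at -0.86 ± 0.71 at 7 dpi and -0.02 ± 0.05 at 21 dpi. The human miR-144 probe was not detected on any array. The frog miR-144 probe was not detected at 7 dpi, so it passed the minimum on the same arrays as the miR-101b probe. Against the median empty spot, the median spot of the frog miR-144 probe stood at 15.3 for uninjured hearts, -0.225 for 7 dpi and 42.2 for 21 dpi. Of 4 blood miRNAs (miR-451, miR-144, miR-142-3p and miR-223), 3 passed the minimum for uninjured hearts, 2 for 7 dpi and 4 for 21 dpi, and their part in the miR-101 readings was not tested. miR-451, the erythroid partner of miR-144, was detected on all arrays and had normalized log2 differences of -0.08 at 7 dpi and 0.00 at 21 dpi. The human probe of miR-223, a leukocyte miRNA, stood at 1.48 ± 0.09 at 7 dpi, where it was called. At 21 dpi it stood at 0.72 ± 0.08 and was not called. Another probe of this name, xla-miR-223, stood at 0.086 at 7 dpi and was not called. miR-142-3p, also of leukocytes, was detected at 21 dpi alone, with a median spot 59.6 above the median empty spot. At 7 dpi, where neither miR-144 probe was detected, the median spot of the human miR-101 probe was 161 above the median empty spot. Binding of miR-144 to the miR-101 probes was not tested.

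Among 136 other miRNA names detected on all arrays, those whose pair of differences to the uninjured heart lay nearest to the human miR-101 probe, by Euclidean distance, were miR-99a, miR-140-3p, let-7c, miR-26b and miR-29c. Their normalized log2 differences were -0.08, -0.24, -0.15, -0.09 and 0.00 at 7 dpi, beside -0.13 for miR-101. At 21 dpi they were -0.36, -0.48, -0.34, -0.59 and -0.57, beside -0.46, the last of them with a standard error of 0.80 over its spots. The frog miR-29a probe, which matches the miR-29c probe at every shared base, stood at -0.27 at 7 dpi and 0.30 at 21 dpi. Started from the miR-101a probe instead, a choice made after the values were seen, the nearest was miR-1260b at -0.25 and -0.05, and none of its 5 nearest names was among the 5 given above. Which miRNAs were nearest thus depended on the miR-101 probe taken.

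Of 12 miRNAs tied to heart scar and regeneration in other animals, all 12 were detected on at least 1 array of each comparison with the uninjured heart. At 7 dpi 1 was called higher, miR-21, which is raised in many injured tissues, at 1.76 ± 0.13, and none lower, so 1 of 12 was called higher where 8.63% of all probes tested were. In the list, miR-29a and miR-29c were counted as separate names, though their probes match at every shared base. These counts take only the brightest probe of each name. For miR-128 that was the human probe, at -0.86 at 7 dpi. The frog miR-128 probe, left out of the counts and named after its values were seen, stood at -1.07. At 21 dpi miR-21 was again the one called, at 2.62 ± 0.12, where 0.870% of all probes were called higher. It is named because it was called, which was seen from its values. The list medians were -0.03 and 0.02. The brightest members by mean level were miR-30c at 0.25 and 0.17, miR-26a at -0.44 and -0.21, and the muscle miRNAs miR-133a at 0.35 and 0.05 and miR-133b at 0.34 and 0.17, at 7 and 21 dpi. Like the miR-101 probes these lie inside 2-fold. Of 5 miRNAs known in mammals to repress EZH2, as miR-101 does, miR-26a, miR-26b and miR-214 were detected, and miR-138 and miR-98 were not on any array. None was called in either comparison, beside 12.5% of all probes at 7 dpi and 3.04% at 21 dpi. miR-26b stood at -0.09 ± 0.05 at 7 dpi and -0.59 ± 0.43 at 21 dpi, and miR-214 at -0.07 ± 0.03 and -0.11 ± 0.06. The list medians were -0.09 at 7 dpi and -0.21 at 21 dpi.

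**Figure D5:**
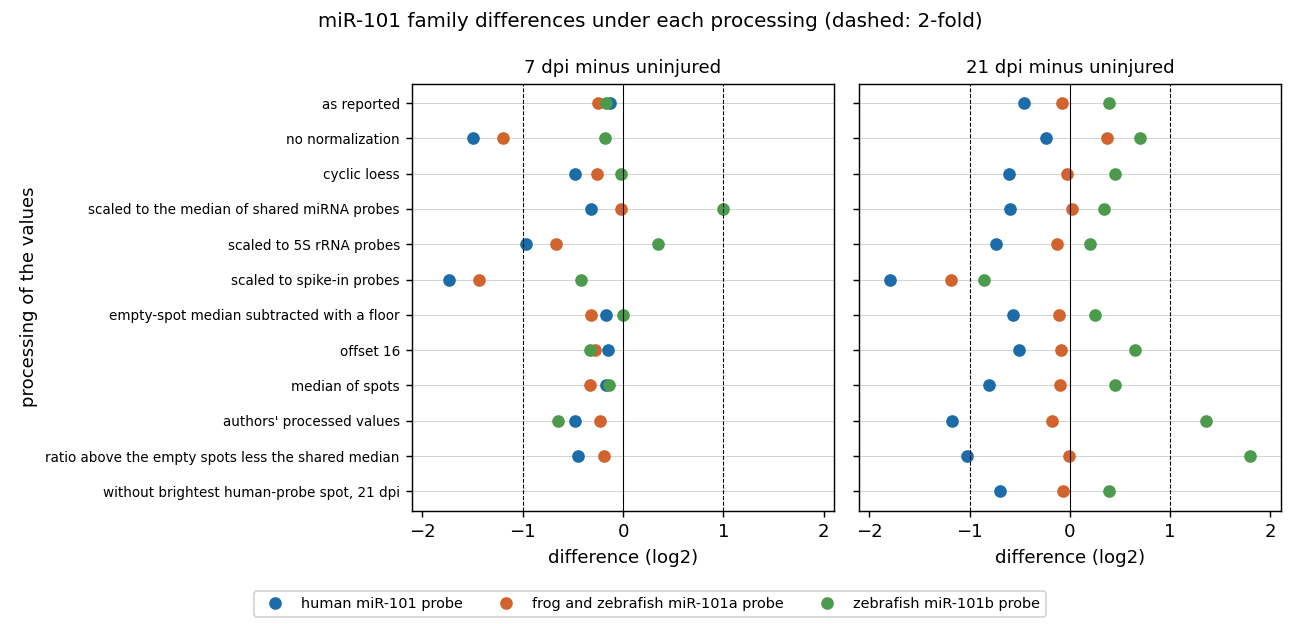
Log2 differences of the 3 miR-101 family probes under each processing of the values, for 7 dpi minus uninjured and 21 dpi minus uninjured, with dashed lines at 2-fold. The human and miR-101a points stay left of 0 at 7 dpi under each processing shown, past 2-fold only with no normalization or with spike-in scaling, and at 21 dpi the human point stays left of 0 while the miR-101a point lies on either side.

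Across the processing shown in the plot of settings, the 21 dpi difference of the human probe to the uninjured heart was negative in 11 of 11 alternatives, between -1.80 and -0.24. That of the miR-101a probe was negative in 9 of 11, between -1.18 and 0.37. Spike-in scaling gave the lowest value for both.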

How the data were processed

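Total RNA was ligated to an adapter for Cy3 staining and hybridized by a service provider, per the labels' protocols. They give 2.6, 5.1 and 3.3 µg as the RNA sent for the uninjured, 7 dpi and 21 dpi samples, and 0.5 µg as input. The authors deposited 1 median intensity per spot with no background column, and 1 processed intensity per probe, whose background and scaling methods the sources used here do not give. The series text speaks of samples compared in pairs, but each scanner file holds 1 channel, and values were treated as 1-colour.

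Under R 4.3.3, limma 3.58.1 corrected all spots by normexp with an offset of 50. Intensities were then put on the log2 scale, averaged over 3 spots and quantile normalized over 1365 miRNA probes. The offset compresses differences of dim probes. Normalization assumes like distributions of signal in each sample. Calling was first tested on simulated data, made from the uninjured array with bright probes changed. No shift in whole-array brightness and no change in dim probes was simulated, so that test does not speak for either. Lower bounds set the level on one array against the higher of the lowest detected level and the probe's own level on the other. All family probes are named, with miR-101*, miR-144, the 5 nearest miRNAs and the 4 brightest or fewer from each list. For lists, probes of 1 name were collapsed to the brightest. The members, lists and rules were chosen with earlier results of these data known. Alternatives in normalization, background, offset, spot summary, detection and source of values were run. The number of arrays limits the precision.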

Additional observations from a re-analysis of the deposited data

How the results depend on the processing

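The family medians of the normalized log2 difference were -0.17 for 7 dpi minus uninjured, -0.08 for 21 dpi minus uninjured and 0.17 for 21 dpi minus 7 dpi, each with 0 of 3 probes called. They moved by more than the spread between spots as follows, and the cause was not tested. For 7 dpi minus uninjured, the median was -1.20 with no normalization (2 called), -1.43 with spike-in scaling (2 called), -0.67 with 5S rRNA scaling, -0.021 with scaling to the median of shared probes, -0.48 in the authors' values and -0.32 as ratios above the empty spots less the shared median, an alternative added after seeing the data. For 21 dpi minus uninjured, it was 0.37 with no normalization and -1.18 with spike-in scaling (2 called). Its count was 2 in the authors' values, the human probe lower and miR-101b higher, on fold alone because they hold no spots. There 55 of 230 probes were past 2-fold, 14 higher and 41 lower. The count was 1 as ratios above the empty spots, where 26 of 175 probes were called. For 21 dpi minus 7 dpi, the median was 1.26 with no normalization (2 called), -0.28 with scaling to shared probes and -0.066 with spike-in scaling. It was -0.080 with detection at percentile 99, which leaves 2 probes, and -0.29 as ratios above the empty spots. In the authors' values 1 family probe was past 2-fold between the injured hearts, beside 78 of 231 probes, 24 higher and 54 lower.

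Over all 255 probes tested, calls at 7 dpi were 22 higher and 10 lower as reported, and 6 and 96 with no normalization. They were 67 and 7 scaled to shared probes, 23 and 30 with 5S rRNA scaling and 3 and 113 with spike-in scaling. At 21 dpi they were 2 and 5 of 230 as reported, 18 and 1 with no normalization and 1 and 163 with spike-in scaling. For 21 dpi minus 7 dpi they were 9 and 20 of 231 as reported, 127 and 4 with no normalization and 1 and 68 scaled to shared probes. The other alternatives gave 27 to 94 calls at 7 dpi, 7 to 55 at 21 dpi and 22 to 78 between the injured hearts. Scalings of whole arrays followed the offset and also moved probes near the empty spots, which is where miR-101b lies. Offset 16, cyclic loess, subtraction of the empty-spot median with a floor, the median of spots, no detection filter and a 1.5-fold threshold left 0 family probes called in each comparison. No paired analysis was possible because each group has 1 sample, and no sample could be left out. Signal over background limits miR-101b most, with a median spot 1.07 times the detection minimum in the uninjured heart.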
